A study of Homo sapiens with 16 samples.

Results

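The S100 genes described here are the 10 named members S100B, S100A1, S100A2, S100A3, S100A4, S100A6, S100A10, S100A11, S100A13 and S100A16, each taken by its gene symbol from the count tables, out of 28278 genes counted. RNA was sequenced from a pair of established human melanoma lines, SKMEL28 and A375, in 16 libraries. MITF and TFE3 are related basic helix-loop-helix transcription factors, and MITF is the lineage factor of melanocytes. SKMEL28 gave 3 libraries of clone 3 and 3 libraries of clone 13 of a MITF and TFE3 double knockout (DKO), 3 libraries of its parent labelled D2 MITFKO, and 1 wild-type (WT) library that carries the replicate number 4. A375 gave 3 TFE3KO and 3 WT libraries. TFE3 was edited with CRISPR-Cas9, in SKMEL28 on top of the MITF knockout, so that both DKO clones and their MITFKO reference carry the MITF edit, and in A375 in cells with no MITF edit named. Replicates were separate flasks of the same line, so p-values reflect how far cultures varied, not how far separately edited clones would. The number of clones behind the A375 TFE3KO line is not given in the sources used here. SKMEL28 grew in RPMI and A375 in DMEM, both with fetal bovine serum, and the medium was renewed 24 h before harvest.

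S100 proteins are small EF-hand calcium sensors that mostly work as dimers. When calcium binds, a hydrophobic surface opens and captures target proteins such as annexins, cytoskeletal proteins and p53. Most family members sit side by side in a cluster on chromosome 1, whereas S100B lies on chromosome 21. S100B is the classical tissue and serum marker of melanoma and is also made by Schwann cells and astrocytes. In bulk samples, fewer cells that make a transcript and less of it per cell cannot be told apart.

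The first 250 bases of promoter before the start are shown for 4 members that changed in opposite directions after TFE3 editing in A375. S100A1 and S100A13 rose there, and S100A4 and S100A16 fell. The sequences are RefSeq windows of build GRCh38.p14 on chromosome 1, printed 5′ to 3′ on the strand of the gene, with the window for S100A13 at S100A13's outermost start in the table and the window for S100A16 at the downstream of its starts. Capitals mark the M-box core CATGTG on either strand, where the other strand reads CACATG; the E-box CACGTG was also searched and occurs in none of them. The windows lie at chr1:153634362-153634611 (minus strand) for S100A13, chr1:153628184-153628433 (plus strand) for S100A1, chr1:153609356-153609605 (minus strand) for S100A16 and chr1:153545807-153546056 (minus strand) for S100A4.
S100A1: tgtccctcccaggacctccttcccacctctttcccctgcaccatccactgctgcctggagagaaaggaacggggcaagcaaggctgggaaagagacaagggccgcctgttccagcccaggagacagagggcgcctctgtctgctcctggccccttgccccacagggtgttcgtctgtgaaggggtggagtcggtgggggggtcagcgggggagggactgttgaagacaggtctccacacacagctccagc
S100A13: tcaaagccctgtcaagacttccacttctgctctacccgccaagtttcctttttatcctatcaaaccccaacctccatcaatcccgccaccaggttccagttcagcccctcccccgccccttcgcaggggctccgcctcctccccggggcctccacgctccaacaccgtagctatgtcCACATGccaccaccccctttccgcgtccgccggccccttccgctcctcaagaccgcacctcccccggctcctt
S100A4: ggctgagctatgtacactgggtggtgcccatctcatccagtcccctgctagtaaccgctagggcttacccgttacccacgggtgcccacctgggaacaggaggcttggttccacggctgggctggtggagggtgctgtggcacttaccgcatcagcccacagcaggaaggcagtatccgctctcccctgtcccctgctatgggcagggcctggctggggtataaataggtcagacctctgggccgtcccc
S100A16: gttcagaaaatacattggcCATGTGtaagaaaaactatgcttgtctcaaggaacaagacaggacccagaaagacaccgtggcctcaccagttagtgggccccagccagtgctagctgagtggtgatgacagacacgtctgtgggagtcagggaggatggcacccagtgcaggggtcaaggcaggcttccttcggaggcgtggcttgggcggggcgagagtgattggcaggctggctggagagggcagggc
The CATGTG core begins 73 bases before the start of S100A13 and 231 bases before that of S100A16. A RefSeq window was found for 9 of the 10 members, with 13 windows in all, and 2 of these windows, in S100A13 and S100A16, held either motif. The table has 3 windows for S100A13 and 2 for S100A16, and the ones printed are those that hold the motif, while the other windows of these genes hold neither motif. Over all 35116 promoter windows of the same length, 9.42% held CATGTG, 6.34% held CACGTG and 15.2% held either. A match to these letters is a description of the window and not a binding site.

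Total counts per library ran from 17320855 to 31269126, and 15605 to 17528 genes were detected per library. Levels are given as CPM, the count of a gene scaled to a common library size with trimmed-mean (TMM) factors. TFE3 itself averaged 9.63 ± 1.85 CPM in DKO clone 3 and 47.0 ± 2.98 CPM in DKO clone 13, against 75.4 ± 3.79 CPM in MITFKO (SD, n = 3 each), and 45.0 CPM in SKMEL28 WT. TFE3 mRNA in clone 13 was lower than in its MITFKO parent (log2 change -0.68 ± 0.09, adjusted p = 4.15e-06) but lay near the WT level, so it is a weaker check of the knockout label there than in clone 3 (-2.97 ± 0.11, adjusted p = 1.92e-14). In A375 it averaged 11.6 ± 0.685 CPM in TFE3KO and 120 ± 5.67 CPM in WT (SD, n = 3 each). MITF mRNA was 512 ± 30.8 CPM in MITFKO (SD, n = 3) and 539 CPM in WT, a difference that was not called (log2 change -0.07, adjusted p = 0.516), so its mRNA level does not check the MITFKO label. Over MITFKO, MITF mRNA rose in the mean of the DKO clones (log2 change 0.73 ± 0.05, adjusted p = 7.31e-10). In A375 it fell, from 34.7 CPM in WT to 18.0 CPM in TFE3KO (log2 change -0.94 ± 0.09, adjusted p = 3.93e-13). The part of these MITF changes in the S100 values was not tested. Replicate 2 of DKO clone 13 stood apart from the other libraries of its clone, with a chi-square per gene of 21.9 and 23.3 against them, where all other replicate pairs lay between 3.2 and 7.14. The SKMEL28 WT group is 1 library, and its file header names a different alignment input from most others. In the summed melanocytic marker list, DKO clone 3 held 5616 to 6384 CPM, DKO clone 13 held 6437 to 8201, MITFKO 5389 to 5574 and SKMEL28 WT 13810, whereas A375 TFE3KO held 814 to 884 and A375 WT 547 to 579. TYR was at 0 in every A375 library of both groups, while SOX10 averaged 787 ± 37.5 CPM in A375 TFE3KO and 502.5 ± 14.5 CPM in A375 WT (SD, n = 3 each). S100A1 lies on the plus strand and S100A13 on the minus strand, and they share 235 exon bases in the GENCODE 29 annotation. Whether strand was used in counting is not given in the sources used here, so reads from that stretch cannot be assigned and the values of both genes are uncertain to that extent.

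All 10 members passed the filter on low counts in each comparison, although S100A3, at 0 in the SKMEL28 WT library, and S100A4, at 3 counts there, passed in SKMEL28 only through other groups. Both are among the 9 members counted as higher against SKMEL28 WT, and those counts are a description. A call is an adjusted p under 0.05 from the quasi-likelihood test of edgeR, adjusted by Benjamini-Hochberg over all genes tested. In A375 TFE3KO against WT, 8 members rose and 2 fell, where 43.3% of all genes tested were called (21.3% higher and 22% lower). In the mean of the DKO clones against MITFKO, 8 rose and 0 fell, with S100A4 and S100A6 not called, beside 41.1% of all genes called (20.4% higher and 20.7% lower). Clone 3 alone had 7 higher members and 0 lower, beside 35.9% of genes called (18.2% higher and 17.6% lower). Clone 13 alone had 9 higher and 0 lower, beside 40.7% of genes called (20.5% higher and 20.2% lower). In MITFKO against SKMEL28 WT, 9 rose and 1 fell, beside 48.6% of genes called (25.2% higher and 23.4% lower). The median log2 change of the members was 0.74 in A375 and 0.57 in the DKO mean, against 0.0033 and -0.013 over all genes tested. In MITFKO against WT it was 1.44, against 0.015 over all genes. Setting S100A3 and S100A4 to their count-based limits could not move this median, since both lie above the middle members at either setting. The summed level of the 10 members was 2323 ± 212 CPM in A375 TFE3KO and 1742 ± 55.1 CPM in A375 WT (SD, n = 3 each). In SKMEL28 the sum was 2469 ± 46.0 CPM in DKO clone 3, 2948 ± 108 CPM in DKO clone 13 and 1837 ± 68.3 CPM in MITFKO (SD, n = 3 each), with 1732.5 CPM in the WT library. In the DKO mean against SKMEL28 WT, 9 members rose and 1 fell, beside 52.9% of genes called (26.5% higher and 26.4% lower). The comparisons of the DKO clones and of SKMEL28 WT with MITFKO share the MITFKO libraries, and every comparison with SKMEL28 WT rests on its 1 library.

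**Figure D1:**
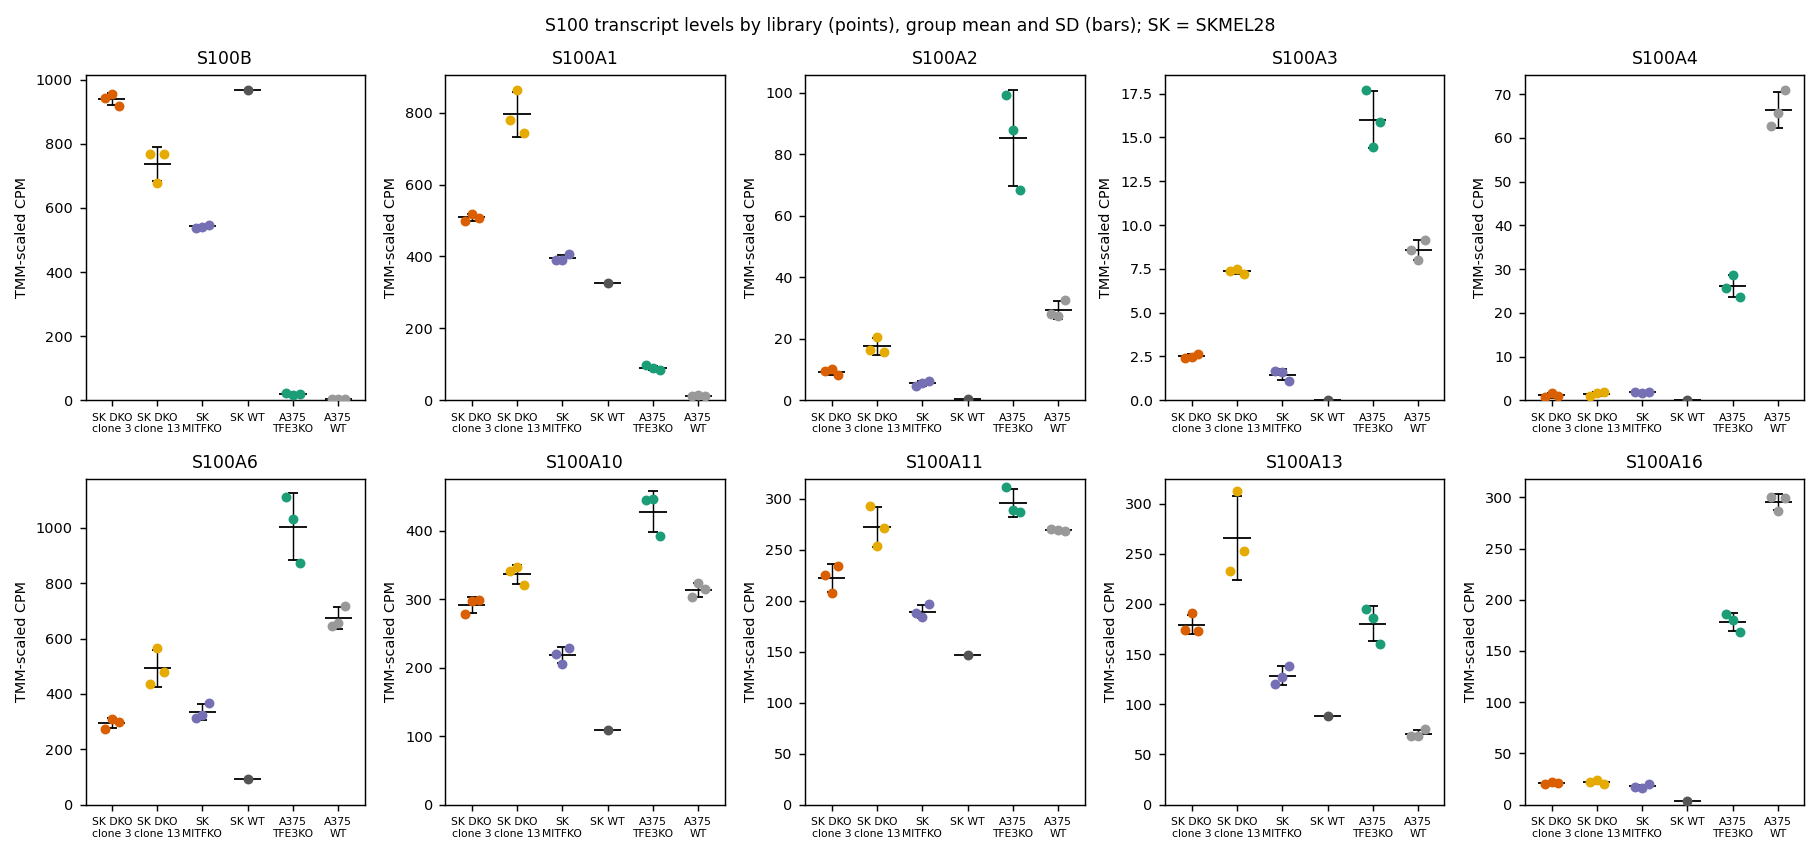
CPM (linear axis, own scale per gene) of each S100 member, with 1 point per library and bars for the group mean and SD; the SKMEL28 WT group is 1 library. S100B and S100A1 are high in the SKMEL28 groups and low in both A375 groups, and S100A4 and S100A16 run the other way.

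S100B, the melanoma marker, changed with TFE3 editing in both lines. In A375 TFE3KO it was 21.3, 17.01 and 18.0 CPM, against 2.56, 3.06 and 2.89 CPM in A375 WT. The groups did not overlap, and the gene rose 6.64-fold (log2 change 2.73 ± 0.15 (SE), adjusted p = 4.15e-22). In SKMEL28 it was 944, 956 and 918 CPM in DKO clone 3, 769, 678 and 768 CPM in DKO clone 13, and 538, 542 and 548 CPM in MITFKO, with 968 CPM in the WT library. MITFKO was the lowest of these 4 groups, and neither clone overlapped it. The log2 change was 0.79 ± 0.06 in clone 3 (adjusted p = 5.35e-10) and 0.44 ± 0.06 in clone 13 (adjusted p = 1.39e-06), both over MITFKO. Without replicate 2 of clone 13 the second value was 0.51. In MITFKO against SKMEL28 WT S100B fell by 0.83 ± 0.08 on the log2 scale (adjusted p = 4.89e-09), the only member lower there. The mean of both clones was also lower than WT (log2 change -0.22 ± 0.07, adjusted p = 0.0152). The other neural crest and Schwann cell markers, 9 genes, summed to 501 to 520 CPM in A375 TFE3KO and 302 to 308.5 CPM in A375 WT, and in SKMEL28 to 1394 to 1453 CPM in DKO clone 3, 1235 to 1452 CPM in DKO clone 13, 1183 to 1236 CPM in MITFKO and 1269 CPM in WT. Among them ERBB3 rose in A375 TFE3KO by 1.45 ± 0.04, while NGFR fell by 0.98 ± 0.05 and SOX9 by 2.42 ± 0.20 (adjusted p = 9.82e-37, 1.95e-22 and 9.81e-15). Of the 9, 5 rose and 3 fell there, and their part in the S100B values was not tested.

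S100A1, a regulator of calcium handling in muscle, and S100A13, which takes part in the release of the growth factor FGF1, followed S100B in A375. S100A1 was 96.8, 89.0 and 84.2 CPM in A375 TFE3KO, against 12.3, 13.9 and 12.6 CPM in A375 WT. S100A13 was 195, 186 and 160 CPM in A375 TFE3KO, against 68.4, 68.1 and 75.0 CPM in A375 WT. Both sets of libraries were well separated. S100A1 rose by 2.80 ± 0.07 on the log2 scale (adjusted p = 1.77e-35), the largest fold of the members in A375, and S100A13 by 1.36 ± 0.06 (adjusted p = 4.06e-20). In SKMEL28, S100A1 was 499, 519 and 507 CPM in DKO clone 3, 780, 864 and 742 CPM in clone 13, 391, 390 and 407 CPM in MITFKO, and 325 CPM in WT. S100A13 was 174, 191 and 173 CPM in clone 3, 232, 312 and 252 CPM in clone 13, 120, 127 and 138 CPM in MITFKO, and 87.9 CPM in WT. Clone 13 was the highest group for both genes and the WT library the lowest. Over MITFKO the log2 change of S100A1 was 0.36 ± 0.06 in clone 3 (adjusted p = 4.01e-05) and 1.01 ± 0.06 in clone 13 (adjusted p = 1.44e-11), and that of S100A13 was 0.48 ± 0.09 (adjusted p = 0.000922) and 1.05 ± 0.09 (adjusted p = 4.78e-07). Without replicate 2 the clone 13 changes were 0.95 for S100A1 and 0.92 for S100A13. MITFKO was above WT by 0.28 ± 0.08 for S100A1 (adjusted p = 0.00691) and by 0.55 ± 0.14 for S100A13 (adjusted p = 0.00374). The ratio of S100A1 to S100A13 counts was 0.479 to 0.525 in the A375 TFE3KO libraries and 0.169 to 0.204 in the A375 WT libraries, so the overlapping pair did not keep 1 ratio, and it was 2.72 to 3.7 in SKMEL28. The part of the shared exon bases in these values was not tested.

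S100A10 and S100A11 are partners of annexins, S100A10 of ANXA2 at the plasma membrane and S100A11 of ANXA1, and S100A6 (calcyclin) binds ANXA11 and CACYBP. These 3 genes are expressed in both lines. S100A10 was 445, 446 and 393 CPM in A375 TFE3KO, against 303, 323 and 315 CPM in A375 WT. S100A11 was 311, 288 and 286 CPM in A375 TFE3KO, against 270, 269 and 268 CPM in A375 WT. Both rose, S100A10 by 0.45 ± 0.04 on the log2 scale (adjusted p = 3.1e-13) and S100A11, the smallest change of the 10, by 0.14 ± 0.04 (adjusted p = 0.00109). S100A6 was 1110, 1031 and 873 CPM in A375 TFE3KO, against 644, 657 and 719 CPM in A375 WT. Its groups did not overlap and it rose by 0.58 ± 0.11 (adjusted p = 0.0126), but the call was lost without WT replicate 1 (adjusted p = 0.0531) or WT replicate 2 (adjusted p = 0.0545).

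In SKMEL28, S100A10 was 278, 297 and 299 CPM in DKO clone 3, 341, 347 and 321 CPM in clone 13, 221, 206 and 229 CPM in MITFKO and 109 CPM in WT. S100A11 was 225, 208 and 234 CPM in clone 3, 292, 254 and 271 CPM in clone 13, 188, 183 and 196 CPM in MITFKO and 146 CPM in WT. Both genes had the same order of groups, with clone 13 highest and WT lowest. S100A10 rose in clone 3 by 0.42 ± 0.06 and in clone 13 by 0.62 ± 0.06 over MITFKO (adjusted p = 8.02e-06 and 1.96e-08). S100A11 rose by 0.23 ± 0.06 in clone 3 and 0.53 ± 0.06 in clone 13 (adjusted p = 0.00548 and 6.05e-07). Without replicate 2 of clone 13 its changes were 0.60 for S100A10 and 0.58 for S100A11, and the S100A11 call in clone 3 was lost when libraries were scaled by total counts alone (log2 change 0.16, adjusted p = 0.0801). In MITFKO they rose by 1.00 ± 0.09 (adjusted p = 3e-09) and 0.37 ± 0.09 (adjusted p = 0.0015) over WT. S100A6 set the clones apart, at 274, 310 and 300 CPM in clone 3, 435, 564 and 478 CPM in clone 13, 314, 324 and 369 CPM in MITFKO and 91.1 CPM in WT. Clone 3 lay just below MITFKO, without overlap, and clone 13 above it. The log2 change was -0.19 in clone 3 (95% interval -0.36 to -0.01, adjusted p = 0.119) and 0.55 ± 0.09 in clone 13 (adjusted p = 0.000123), which was 0.45 without replicate 2 of clone 13. The clone 3 value passed the threshold, as lower, when only the groups compared were fitted (adjusted p = 0.00477), with a replicate block (adjusted p = 0.0174), with no filter on low counts (adjusted p = 0.00774), with total counts as the only scaling (adjusted p = 0.00854) and without replicate 2 of both clones (adjusted p = 0.000775). The mean of both clones was 0.18 above MITFKO on the log2 scale and was not called (adjusted p = 0.0679), but it was called when MITFKO replicate 3 (adjusted p = 0.0268), clone 3 replicate 1 (adjusted p = 0.0435), clone 13 replicate 1 (adjusted p = 0.00971) or clone 13 replicate 2 (adjusted p = 0.0296) was left out. It was also called with a replicate block (adjusted p = 0.0101), with DESeq2 (adjusted p = 0.033), with no filter on low counts (adjusted p = 0.00214) and without replicate 2 of both clones (adjusted p = 0.0385). S100A6 in MITFKO exceeded WT by 1.88 ± 0.14 on the log2 scale (adjusted p = 2.83e-08).

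S100A4, which binds non-muscle myosin and is associated with metastasis, and S100A16, a widely expressed member, fell in A375 TFE3KO. S100A4 was 25.7, 28.7 and 23.7 CPM in A375 TFE3KO, against 62.8, 65.6 and 71.0 CPM in A375 WT. S100A16 was 186, 180 and 168 CPM in A375 TFE3KO, against 301, 286 and 299 CPM in A375 WT. No library of one group reached the other for either gene. The summed fibroblast markers, of which S100A4 is not one, were 12.1 to 14.1 CPM in A375 TFE3KO and 13.0 to 15.7 CPM in A375 WT. S100A4 fell by 1.35 ± 0.07 on the log2 scale (adjusted p = 1.79e-22) and S100A16 by 0.72 ± 0.04 (adjusted p = 9.16e-23). In SKMEL28, S100A4 was 0.691, 1.65 and 0.945 CPM in DKO clone 3, 0.984, 1.64 and 1.91 CPM in clone 13 and 1.91, 1.55 and 1.89 CPM in MITFKO, with 0.123 CPM in WT, which is 3 counts. The clones overlapped MITFKO and the log2 change was not called, at -0.70 in clone 3 (95% interval -1.56 to 0.17) and -0.23 in clone 13 (95% interval -1.06 to 0.60). MITFKO exceeded WT with a ratio of 14.5 and a 95% counting interval of 4.84 to 71.5, from 107 and 3 counts, which is a description. S100A16 was 20.3, 22.3 and 21.2 CPM in DKO clone 3, 21.7, 23.8 and 20.3 CPM in clone 13, 17.3, 16.4 and 19.7 CPM in MITFKO and 3.73 CPM in WT. Each clone lay just above MITFKO without overlap. The log2 change was 0.26 (95% interval 0.03 to 0.48, adjusted p = 0.0869) in clone 3 and 0.30 ± 0.11 (adjusted p = 0.0387) in clone 13, and the clone 13 call was lost without its replicate 2 (log2 change 0.24, adjusted p = 0.113), without its replicate 1 (adjusted p = 0.0556) and without MITFKO replicate 1 or 2 (adjusted p = 0.113 and 0.168). The mean of both clones was 0.28 ± 0.10 above MITFKO (adjusted p = 0.0288), a call lost without MITFKO replicate 1 (adjusted p = 0.111), MITFKO replicate 2 (adjusted p = 0.17) or clone 3 replicate 2 (adjusted p = 0.0539). With total counts as the only scaling both calls were lost, at 0.12 in clone 13 (adjusted p = 0.403) and 0.15 in the mean (adjusted p = 0.227). Both were also lost without replicate 2 of both clones (adjusted p = 0.103 and 0.0601). The clone 13 call was lost with no filter on low counts (adjusted p = 0.0525). MITFKO exceeded WT in S100A16 by 2.25 ± 0.20 (adjusted p = 3.94e-09).

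S100A2, best known from keratinocytes and as a p53 partner, and S100A3, known from the hair cuticle, were low in SKMEL28, as was S100A4. S100A2 was 99.3, 88.0 and 68.5 CPM in A375 TFE3KO, against 27.9, 27.2 and 32.7 CPM in A375 WT. S100A3 was 17.7, 14.5 and 15.9 CPM in A375 TFE3KO, against 8.59, 7.98 and 9.15 CPM in A375 WT. Both rose without overlap, by 1.55 ± 0.16 (adjusted p = 0.000572) and 0.91 ± 0.12 (adjusted p = 1.54e-08) on the log2 scale. In SKMEL28, S100A2 was 9.57, 10.1 and 8.09 CPM in DKO clone 3, 16.2, 20.6 and 15.6 CPM in clone 13, 4.62, 5.69 and 6.14 CPM in MITFKO and 0.533 CPM in WT. S100A3 was 2.42, 2.45 and 2.66 CPM in clone 3, 7.35, 7.46 and 7.23 CPM in clone 13, 1.67, 1.60 and 1.12 CPM in MITFKO and 0 in WT. The order of the 4 groups was the same for both genes. Over MITFKO the log2 change of S100A2 was 0.76 ± 0.17 in clone 3 (adjusted p = 0.0014) and 1.68 ± 0.17 in clone 13 (adjusted p = 5e-08). That of S100A3 was 0.77 ± 0.27 in clone 3 (adjusted p = 0.0278) and 2.32 ± 0.25 in clone 13 (adjusted p = 1.79e-07). The S100A3 call in clone 3 was lost without MITFKO replicate 2 or 3 (adjusted p = 0.0505 and 0.119) or clone 3 replicate 3 (adjusted p = 0.0727). Without replicate 2 of clone 13 the clone 13 changes were 1.54 and 2.31. In MITFKO against WT, S100A2 rose by 3.35 ± 0.37. S100A3 was at least 11.9-fold higher against a floor of 3 counts over the group (88 counts against 0), which is a description. The summed keratinocyte markers were 61.8 to 65.1 CPM in clone 3, 79.4 to 106 CPM in clone 13, 75.2 to 84.6 CPM in MITFKO and 52.7 CPM in WT, with DSG3 at 0 in every library, and their part in the S100A2 values was not tested.

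**Figure D2:**
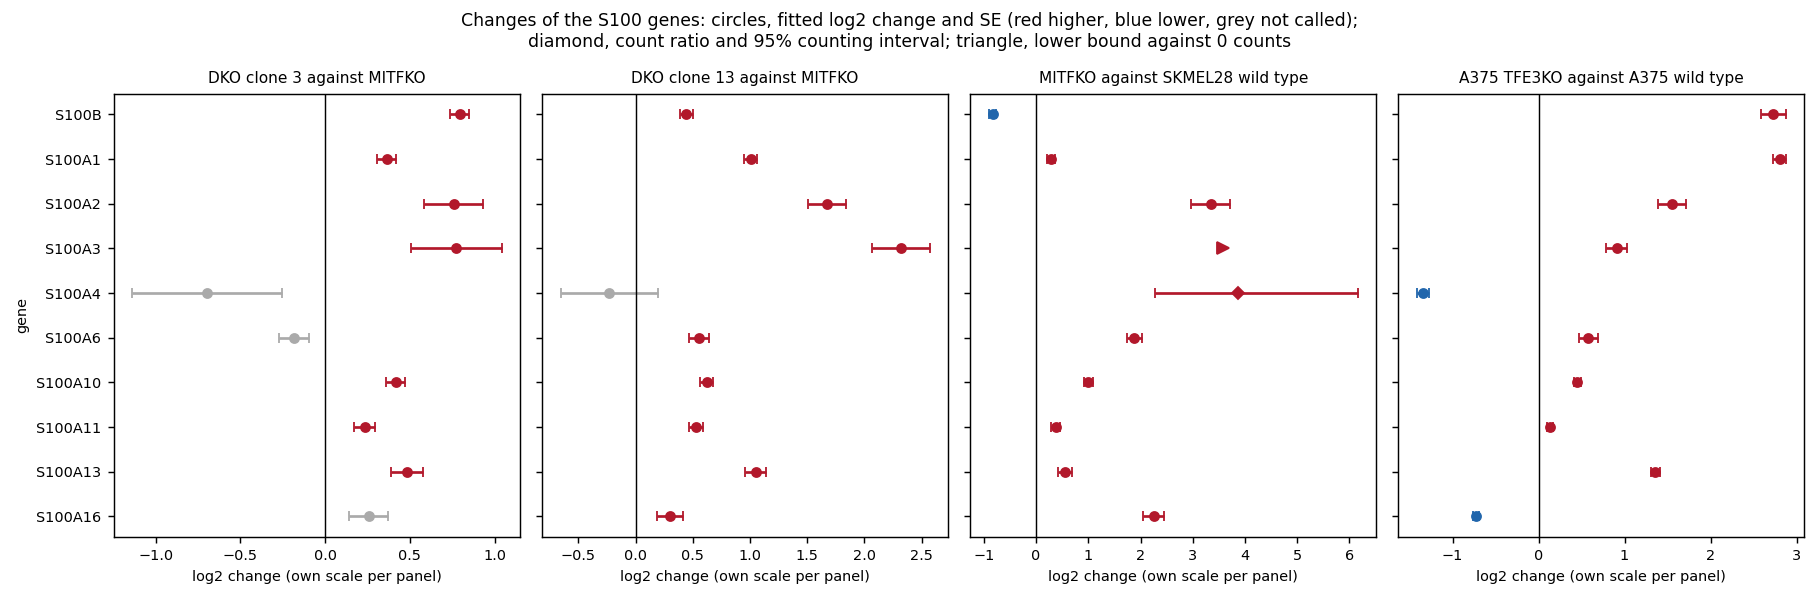
Fitted log2 change of each member with its SE in 4 comparisons, each panel on its own scale; in MITFKO against SKMEL28 WT a triangle marks the lower bound for S100A3 and a diamond the count ratio of S100A4 with its 95% counting interval. Red is higher, blue lower and grey not called. In A375 TFE3KO against WT, S100A4 and S100A16 lie left of 0 and the other 8 right of it, and in MITFKO against WT S100B alone lies left of 0.

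To compare levels between genes, CPM was divided by the median length of the coding transcripts in kb, and the leading member then differed between the lines. In DKO clone 3 S100B led with 1071 CPM per kb, before S100A1 with 911. In DKO clone 13 S100A1 led with 1425 before S100B with 842, in MITFKO S100A1 led with 710 before S100B with 619, and in SKMEL28 WT S100B led with 1104 before S100A1 with 583. S100A10 and S100A13 could not be ordered in clone 3, at 320 and 319 CPM per kb. In A375, S100A6 led in both groups, with 1502 in TFE3KO and 1007 in WT, and S100B was last, at 21.4 in TFE3KO and 3.24 in WT. S100A6 held 44.9% of the members' length-scaled sum in A375 TFE3KO and 41.7% in A375 WT, whereas S100B held 0.639% in TFE3KO and 0.134% in WT. In SKMEL28 the S100B share was 30.8% in DKO clone 3, 19.3% in DKO clone 13, 23.4% in MITFKO and 47.0% in WT.

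**Figure D3:**
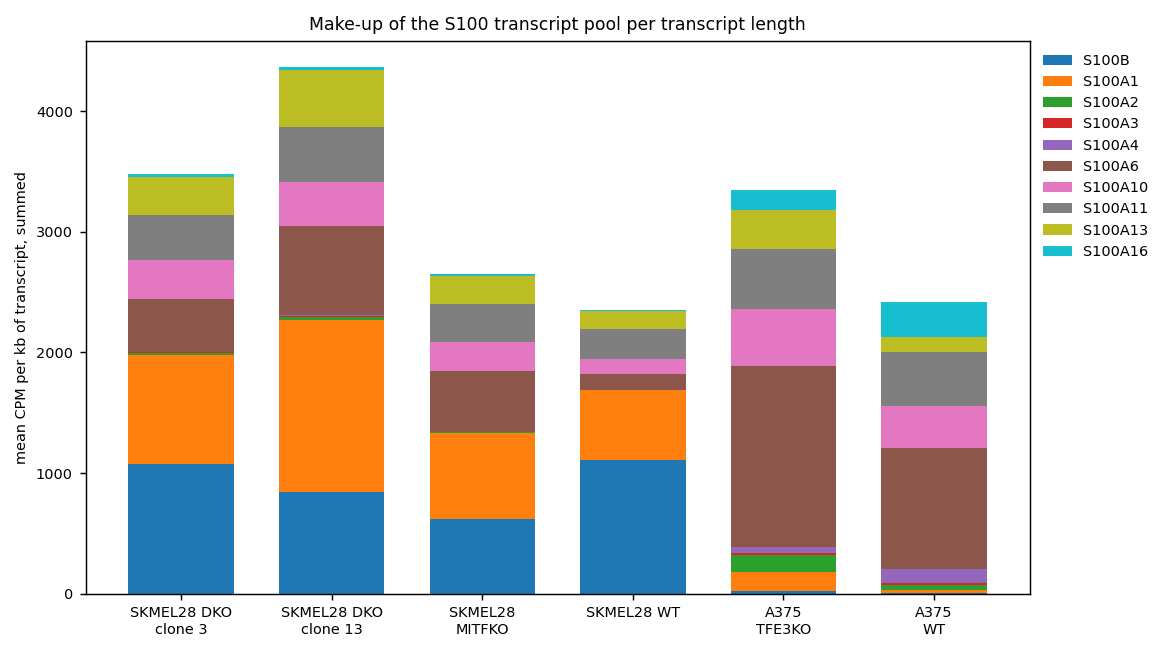
Mean CPM per kb of transcript of the 10 members, stacked for each group, with 1 colour per gene. S100B and S100A1 make up most of the SKMEL28 WT bar, and S100A6 is the largest part of both A375 bars.

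The lines themselves were far apart in these genes. In A375 WT against SKMEL28 WT, 7 members rose, 2 fell and 1 was not called, beside 67.6% of all genes tested called (34.1% higher and 33.6% lower). S100B was 2.84 ± 0.255 CPM in A375 WT (SD, n = 3) and 968 CPM in SKMEL28 WT, a log2 change of -8.41 ± 0.10 (adjusted p = 2.44e-33). S100A1 differed in the same direction, by -4.65 ± 0.08 (adjusted p = 2.73e-29). S100A16 was higher in A375 WT by 6.30 ± 0.14 (adjusted p = 3.05e-26) and S100A2 by 5.76 ± 0.34 (adjusted p = 6.24e-14), and S100A4 had a ratio of 540 with a counting interval of 185 to 2620. S100A13 was 70.5 ± 3.87 CPM in A375 WT (SD, n = 3) and 87.9 CPM in SKMEL28 WT, which was not called (log2 change -0.32, 95% interval -0.59 to -0.05, adjusted p = 0.0526) but was called when low counts were not filtered (adjusted p = 0.000126). It was also called with total counts as the only scaling (log2 change -0.32) and without A375 WT replicate 3 (log2 change -0.36). Line, medium and a single SKMEL28 WT library cannot be told apart in this comparison.

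**Figure D4:**
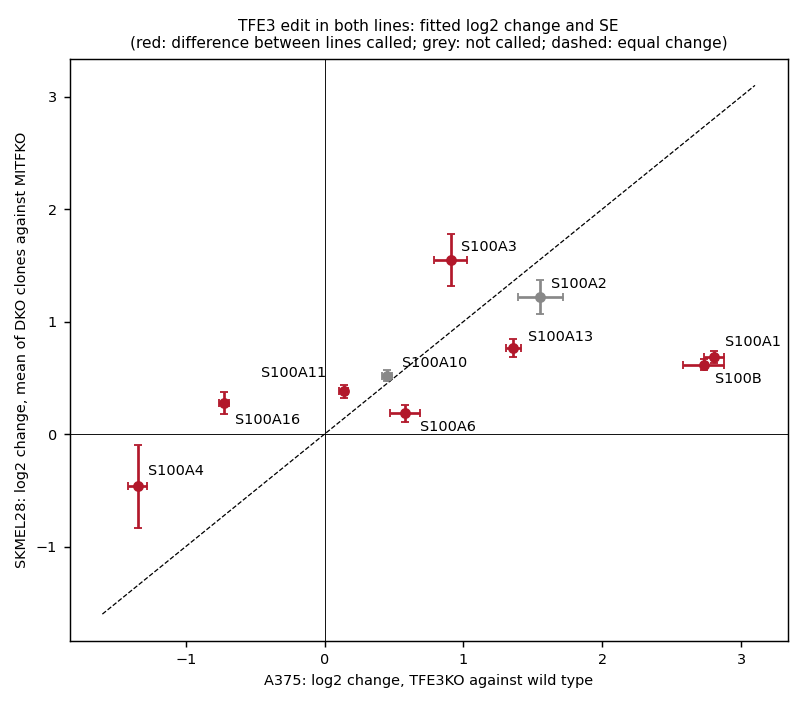
Log2 change after TFE3 editing in SKMEL28 (mean of both DKO clones against MITFKO) and in A375 (TFE3KO against WT), 1 point per member with its SE; red marks a called difference between the lines, grey none, and the dashed line equal change. S100B and S100A1 lie at 2.73 and 2.80 on the A375 axis and far below the dashed line, and S100A4 and S100A16 lie left of 0.

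The size of the TFE3 effect differed between the lines for 8 members, taking the SKMEL28 effect (mean of the clones minus MITFKO) minus the A375 effect (TFE3KO minus WT), beside 37.7% of all genes tested called (18.5% higher and 19.3% lower). Here 4 members were lower in the SKMEL28 effect and 4 higher. S100B and S100A1 had the largest gaps on the log2 scale, each rising by a smaller ratio in SKMEL28. The gaps were -2.11 ± 0.12 for S100B (adjusted p = 1.16e-14) and -2.11 ± 0.08 for S100A1 (adjusted p = 1.3e-17). These ratios start from unlike levels. S100B went from 2.84 to 18.8 CPM in A375, and from 543 CPM in MITFKO to 939 in clone 3 and 738 in clone 13. S100A1 went from 12.9 to 90.0 CPM in A375, and from 396 CPM in MITFKO to 508.5 in clone 3 and 795 in clone 13. S100A13 also rose by a smaller ratio in SKMEL28 (-0.58 ± 0.13, adjusted p = 0.00196). S100A16 differed by 1.01 ± 0.09 (adjusted p = 5.16e-10) and S100A4 by 0.90 ± 0.25 (adjusted p = 0.00503), since both fell in A375. S100A6 differed by -0.39 ± 0.14 (adjusted p = 0.0457) and S100A3 by 0.65 ± 0.24 (adjusted p = 0.031). The S100A3 call was lost without MITFKO replicate 3, A375 WT replicate 1 or 3, or A375 TFE3KO replicate 2 or 3 (adjusted p between 0.0511 and 0.131). That call was also lost with total counts as the only scaling (adjusted p = 0.0879) and with no filter on low counts (adjusted p = 0.0678). The S100A6 call was lost without MITFKO replicate 2 or 3, DKO clone 3 replicate 1 or 3, DKO clone 13 replicate 3, A375 WT replicate 1 or 2, or A375 TFE3KO replicate 1 or 2 (adjusted p between 0.0539 and 0.108). S100A11, which rose by 0.38 in the mean of the clones and by 0.14 in A375, differed by 0.25 ± 0.07 (adjusted p = 0.00634). This call was lost with scaling by total counts alone (adjusted p = 0.233). S100A2 (-0.32, 95% interval -0.70 to 0.06) and S100A10 (0.08, 95% interval -0.06 to 0.22) were not called. S100A2 was called without A375 TFE3KO replicate 3 (adjusted p = 0.0424) and with total counts as the only scaling (adjusted p = 0.049). Without replicate 2 of clone 13 the same 8 members were called, at -2.07 for S100B and -2.13 for S100A1. With clone 3 alone minus MITFKO as the SKMEL28 effect, 6 members were called, beside 42.2% of all genes tested. S100B then differed by -1.93 ± 0.11 (adjusted p = 1.87e-19), S100A1 by -2.43 ± 0.08 (adjusted p = 1.01e-28), S100A13 by -0.86 ± 0.09 (adjusted p = 4.16e-10), S100A6 by -0.75 ± 0.13 (adjusted p = 0.00117) and S100A16 by 1.00 ± 0.09 (adjusted p = 9.64e-13). S100A2 was called (-0.77 ± 0.19, adjusted p = 0.00183), whereas S100A3 (-0.12, adjusted p = 0.791), S100A4 (0.67, adjusted p = 0.0557), S100A10 (-0.02, adjusted p = 0.859) and S100A11 (0.11, adjusted p = 0.169) were not. The S100A3, S100A4 and S100A11 calls were therefore lost without the clone 13 libraries. All SKMEL28 cells in this comparison carry the MITF edit and the A375 cells do not, and the media differ, so these cannot be told apart from the line.

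The DKO clones differed from each other in 8 of the 10 members, where 27.6% of all genes tested were called (14.3% higher and 13.4% lower). In clone 13 against clone 3, 7 members rose and S100B fell by 0.35 ± 0.06 (adjusted p = 6.49e-05). S100A3 had the largest gap, at 1.55 ± 0.24 (adjusted p = 4.4e-05), before S100A2 at 0.92 ± 0.16 (adjusted p = 0.000162) and S100A6 at 0.74 ± 0.09 (adjusted p = 1.85e-05). Among these 8, S100A10 and S100A11 differed least, by 0.21 ± 0.06 and 0.29 ± 0.06 (adjusted p = 0.00971 and 0.00111). The S100A10 call was lost without clone 3 replicate 1 (adjusted p = 0.0624) and with total counts as the only scaling (adjusted p = 0.181). S100A1 differed by 0.65 ± 0.06 and S100A13 by 0.57 ± 0.09 (adjusted p = 2.88e-08 and 0.000344). S100A4 (95% interval -0.41 to 1.34) and S100A16 (95% interval -0.18 to 0.27) were not called. Without replicate 2 of clone 13 the same 8 members were called and the changes were -0.28 for S100B, 1.54 for S100A3, 0.79 for S100A2, 0.64 for S100A6, 0.59 for S100A1 and 0.44 for S100A13. TFE3 mRNA was also higher in clone 13 than in clone 3, at 47.0 ± 2.98 and 9.63 ± 1.85 CPM (SD, n = 3 each), and its part in these differences was not tested.

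Among the genes for proteins that S100 members bind, changes went in both directions. Of 12 annexin genes, 9 were tested in SKMEL28, where 4 rose and 1 fell in the DKO mean over MITFKO, and 2 rose and 5 fell in MITFKO over WT. Of 11 tested in A375, 2 rose and 3 fell. The called share of the annexins tested was 55.6% in the DKO mean, 77.8% in MITFKO over WT and 45.5% in A375, where the shares over all genes were 41.1%, 48.6% and 43.3%. ANXA2, the membrane partner of S100A10, was 1155 ± 75.6 CPM in the DKO libraries (SD, n = 6) and 632.5 ± 8.52 CPM in MITFKO (SD, n = 3), and rose by 0.87 ± 0.05 on the log2 scale (adjusted p = 1.02e-11). In MITFKO over WT, where S100A10 rose, ANXA2 fell by 0.77 ± 0.07 (632.5 ± 8.52 CPM in MITFKO, against 1076 CPM in the WT library, adjusted p = 1.67e-08). In A375 it was 862 ± 12.9 CPM in TFE3KO and 880.5 ± 5.3 CPM in WT (SD, n = 3 each), a change of -0.03 that was not called (adjusted p = 0.429), while S100A10 rose there. ANXA1, the partner of S100A11, rose in the DKO mean (0.70 ± 0.05, adjusted p = 1.52e-10), in A375 TFE3KO (0.63 ± 0.03, adjusted p = 1.34e-24) and in MITFKO over WT (0.53 ± 0.08, adjusted p = 5.46e-06). ANXA11, a partner of S100A6, rose in A375 TFE3KO by 0.33 ± 0.04 (adjusted p = 5.21e-10) and fell by 0.22 ± 0.08 in MITFKO over WT (adjusted p = 0.0248). It was not called in the DKO mean (0.015, adjusted p = 0.84). FGF1, which S100A13 helps to release, rose in MITFKO over WT by 1.86 ± 0.19 (adjusted p = 3.84e-08). Over MITFKO it fell in clone 3 by 0.88 ± 0.12 (adjusted p = 6.68e-06) and rose in clone 13 by 1.18 ± 0.11 (adjusted p = 2.36e-08), while S100A13 rose in both. FGF1 was not called in the DKO mean (0.15, adjusted p = 0.255) or in A375 TFE3KO (0.91, adjusted p = 0.134). AHNAK, a scaffold bound by S100A10 with ANXA2, rose in MITFKO over WT by 0.61 ± 0.08 (adjusted p = 2.26e-06). It was not called in the DKO mean (-0.093, adjusted p = 0.139) or in A375 TFE3KO (-0.27, adjusted p = 0.062). SUGT1, another partner of S100A6, rose in A375 TFE3KO by 0.28 ± 0.06 (adjusted p = 5e-05), and CACYBP was not called there (-0.014, adjusted p = 0.757). SUGT1 was not called in the DKO mean (0.069, adjusted p = 0.472) or in MITFKO over WT (-0.13, adjusted p = 0.363). Nor was CACYBP (0.024, adjusted p = 0.758, and -0.20, adjusted p = 0.0649). CACYBP averaged 177 CPM in clone 3, 131 CPM in clone 13 and 150 CPM in MITFKO. AGER, the receptor for advanced glycation end products and for secreted S100 proteins, was at 0 in every SKMEL28 library and averaged 0.157 ± 0.042 CPM in A375 TFE3KO and 0.0612 ± 0.0698 CPM in A375 WT (SD, n = 3 each), too low to test. TLR4, the receptor that S100A8 and S100A9 engage, averaged 240 ± 10.4 CPM in A375 TFE3KO and 117 ± 2.18 CPM in A375 WT (SD, n = 3 each), a rise of 1.04 ± 0.04 (adjusted p = 3.15e-28). Of 32 partner and receptor genes listed, 8 rose and 5 fell of 26 tested in the DKO mean, 9 rose and 6 fell of 26 in MITFKO over WT, and 9 rose and 9 fell of 27 in A375. These are called shares of 50%, 57.7% and 66.7% of those tested, beside 41.1%, 48.6% and 43.3% of all genes.

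Among 27 other EF-hand calcium sensors, 25 were tested in SKMEL28 and 17 rose in the DKO mean over MITFKO with 0 lower, which is 68% called beside 41.1% of all genes, at a median log2 change of 0.28, against -0.013 over all genes tested. CALU, a calcium-binding protein of the secretory pathway, averaged 1934 ± 80.1 CPM in the DKO libraries (SD, n = 6) and 1311 ± 19.5 CPM in MITFKO (SD, n = 3), and rose by 0.56 ± 0.04 (adjusted p = 1.51e-09). In MITFKO over WT, 10 of the 25 rose and 8 fell, and in A375 10 of 26 rose and 7 fell, which is 72% called in MITFKO over WT beside 48.6% of all genes, and 65.4% called in A375 beside 43.3%. TESC (tescalcin) averaged 7.89 ± 0.875 CPM in A375 TFE3KO and 0.617 ± 0.193 CPM in A375 WT (SD, n = 3 each) and rose by 3.67 ± 0.26 (adjusted p = 1.62e-17). The neighbours of the S100A cluster on chromosome 1 that were tested numbered 13 in SKMEL28, with 3 higher and 1 lower in the DKO mean (30.8% called), and 12 in A375, with 2 higher and 0 lower (16.7% called). The neighbours of S100B on chromosome 21 numbered 8 in each line, with 2 higher and 0 lower in the DKO mean (25% called) and 3 higher and 2 lower in A375 (62.5% called), beside 41.1% and 43.3% of all genes in these comparisons.

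The other S100 genes were near 0. Of 11 listed, 10 were in the tables, and none of them reached a group mean of 1 CPM in these 16 libraries. S100A9 was the highest at 0.951 ± 0.281 CPM in DKO clone 13 (SD, n = 3), against 0.204 ± 0.139 CPM in MITFKO (SD, n = 3) and 0 in WT. In SKMEL28 it passed the filter on low counts only through clone 13, the group then called higher over MITFKO (adjusted p = 0.0201). That call is a description, and the DKO mean was not called (adjusted p = 0.0575). S100A8 had 15, 1 and 5 counts in the libraries of DKO clone 3, against 0, 1 and 1 in those of MITFKO, so most of the clone 3 counts came from 1 library. S100A8 passed the filter on low counts in SKMEL28 only through that library, which belongs to the group then called higher. The clone 3 call (log2 change 3.37 ± 1.30, adjusted p = 0.0479) is therefore a description. Clone 13 was not called (adjusted p = 0.154). The lowest clone 3 library, at 0.0570 CPM, lay barely above the highest MITFKO library, at 0.0517 CPM. Leukocyte and endothelial markers summed to 243 to 278 CPM in clone 3, 173 to 242 CPM in clone 13, 245 to 252 CPM in MITFKO and 322 CPM in WT, and CD68 alone averaged 243 ± 4.79 CPM in MITFKO (SD, n = 3).

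The genes whose pattern over the 16 libraries was most like that of S100B were SNAI2, RAB11FIP4, CAPN3, PLA1A and MMP8. The measure was the root mean square of the difference in centred log2(CPM + 1), over 10823 genes with a mean of at least 5 CPM, where it was 0.629 for SNAI2, 0.66 for RAB11FIP4, 0.736 for CAPN3, 0.761 for PLA1A and 0.779 for MMP8, against a median of 3.2 over all genes compared. SNAI2 averaged 99.6 ± 3.43 CPM in DKO clone 3, 102 ± 14.8 CPM in DKO clone 13, 115 ± 1.02 CPM in MITFKO and 2.13 ± 0.302 CPM in A375 TFE3KO (SD, n = 3 each), with 200 CPM in SKMEL28 WT and 0.508 ± 0.165 CPM in A375 WT (SD, n = 3). PLA1A averaged 86.6 ± 6.06 CPM in clone 3, 72.5 ± 16.6 CPM in clone 13 and 44.4 ± 0.984 CPM in MITFKO (SD, n = 3 each), with 119 CPM in SKMEL28 WT and 0 in all A375 WT libraries. All 5 were high in every SKMEL28 group and low in both A375 groups, and libraries of 1 line share their culture and origin. Between members, S100A10 and S100A11 had the closest patterns (0.227) and S100B and S100A4 the farthest (5.32).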

How the data were processed

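Each library has 1 table of deposited raw counts, whole reads per gene symbol, over 28278 symbols. STAR, featureCounts, DESeq2 and the build hg19 are listed, without versions, in the submitters' processing notes. Not given in the sources used here are the annotation release, strand use and the handling of multiply matching reads, so genes with near-identical copies, such as S100A11 with its pseudogenes, are also uncertain. Groups came from the sample titles.

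Counts were filtered by group with filterByExpr, scaled with TMM factors and tested with edgeR 4.0.16 in R 4.3.3 (robust quasi-likelihood fit, Benjamini-Hochberg adjustment over all genes tested, threshold 0.05). SKMEL28 comparisons used all SKMEL28 libraries in 1 fit, A375 comparisons the A375 libraries, the difference of the TFE3 effects the 15 libraries other than SKMEL28 WT, and the wild types were compared in a fit of all 16. The scripts were tested on simulated counts. Intervals are 95%, a group at 0 is set to a floor of 3 counts, and intervals and floors from counts cover counting error only. Alternatives were DESeq2 1.42.0, other scaling, no filter, fewer groups, a replicate block and leaving out libraries; leaving out replicate 2 of both DKO clones, and taking clone 3 alone as the SKMEL28 effect, were chosen after seeing the data. Same-numbered libraries of the DKO clones deviated together (correlations 0.133, 0.364 and 0.143). This pairs only the replicates 2 by number (0.364). Libraries numbered 1 and 3 correlated as much with each other (0.161 and 0.133) and are not told apart. The members, gene lists and tests were chosen with earlier results of these data known. The genes named from each list were the called ones with the largest changes in each direction, and those that bind a member were named whatever their change. S100B is named without a promoter sequence. Some genes of these lists are not reported here.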

Additional observations from a re-analysis of the deposited data

Results flagged for a closer look

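The effect of TFE3 editing differed between SKMEL28 and A375 in 8 members, by an interaction test in edgeR with Benjamini-Hochberg adjustment. As the SKMEL28 effect minus the A375 effect, on the log2 scale, the difference was -2.11 for S100B, -2.11 for S100A1, -0.58 for S100A13 and -0.39 for S100A6. It was 0.25 for S100A11, 0.65 for S100A3, 0.90 for S100A4 and 1.01 for S100A16. With clone 3 alone as the SKMEL28 effect, S100A3, S100A4 and S100A11 were not called.

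The knockout clones also differed from each other, in 8 members. As clone 13 minus clone 3, on the log2 scale, the difference was -0.35 for S100B, 0.21 for S100A10, 0.29 for S100A11, 0.57 for S100A13, 0.65 for S100A1, 0.74 for S100A6, 0.92 for S100A2 and 1.55 for S100A3.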

How the results depend on the processing

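The number of members called stayed within 1.5 times its reported value under all 113 alternatives run. Most of the 10 members were called in every comparison, so this number could not rise past that limit, and the check is a weak one. Over single members, 1067 of 1130 alternative values kept their direction and side of the threshold, 39 lost the call, 19 gained it and 5 changed sign. With clone 3 alone as the SKMEL28 effect, S100A3 in the difference between lines, a called value, changed sign and lost its call (-0.119), and S100A10, not called, changed sign (-0.0198). The other sign changes were of values not called: S100A16 in clone 13 against clone 3 with total counts as the only scaling (-0.0604) and without clone 13 replicate 2 (-0.0138, against up to 0.107 without another library), and S100A10 in the difference between lines with total counts only (-0.0505); the cause was not tested. With total counts only, the median log2 change of all genes moved to -0.194 in clone 13 against MITFKO, -0.138 in the mean of the clones against MITFKO, -0.106 in clone 13 against clone 3, -0.179 in the mean of the clones against WT and -0.145 in the difference between lines, and 24.8%, 27.6%, 30%, 37% and 30.8% of the called genes were then higher. In clone 3 against MITFKO 36.3% were higher, against 50.9% with TMM scaling. Leaving out 1 library at a time called 6 to 7 members in clone 3 against MITFKO, 8 to 9 in clone 13, 7 to 9 in their mean, 7 to 8 between the clones, 9 to 10 in A375, 6 to 8 in the difference between lines and 9 to 10 between the wild types. With the replicate number as a block, 8 members were called in clone 3 against MITFKO, 9 in clone 13, 9 in their mean, 8 between the clones, 10 in A375 and 8 in the difference between lines. The added call is S100A6 in clone 3, where it was lower, and in the mean, where it was higher. The block changed no member's call between the clones. Same-numbered libraries of the other groups had correlations of their deviations between -0.092 and 0.0756, so they share only a number, and the block result there is given for completeness. No paired analysis was possible because the SKMEL28 WT library has a number no other library shares, in comparisons with it. Fitting only the groups compared is the reported fit in A375 and in the difference between lines. Depth limits S100A3 and S100A4 in SKMEL28, at a few CPM or less.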
